A study of Arabidopsis thaliana with 15 samples.

Results

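The UDP-glycosyltransferase (UGT) genes of Arabidopsis thaliana were described across 3 histone marks: dimethylation and trimethylation of lysine 4 of histone H3 (H3K4me2 and H3K4me3) and trimethylation of lysine 36 (H3K36me3). They were taken by name, as the nuclear protein-coding genes whose symbol in the NCBI RefSeq gene table of assembly TAIR10.1 is UGT followed by a number, which gave 58 of 27444 genes. A further 6 genes that carry such a name only as a synonym were not counted as members and are named below where a list of enzymes holds them. Genes of the family under neither form of name were not counted either, and can stand in the comparison sets. "UGT genes" below means the 58. UGT genes were 1317 to 5072 bp long, with a median of 1842 bp, and 37 of them stood in 15 tandem clusters.

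The series used native ChIP-seq, in which uncrosslinked chromatin is cut with micrococcal nuclease (MNase) before immunoprecipitation. Its 15 libraries came from whole Col-0 seedlings grown from stratified seed on MS plates. Growth was at 21 °C with 16 h of light and 8 h of dark. The libraries covered the fpa single mutant (fpa-7), the bdrs triple mutant and wild type. Each had MNase input, total H3, H3K4me2, H3K4me3 and H3K36me3, with 1 library per assay and genotype. All libraries were labelled as 8 days old, but 1 of the label fields of the bdrs input library gives another age. FPA is an RNA-binding protein of RNA 3′ end formation and flowering time, and the labels do not list the genes or alleles behind the bdrs mutant. The deposited files were 3 lists of peaks, 1 per mark, and the peak names show that each mark's libraries were pooled and set against total H3, also pooled. Which genotypes were pooled is not stated, so no mutant can be set against wild type here, no spread between replicates can be given, and the depth of the reads is unknown. The lists held 23189 H3K4me2, 17686 H3K4me3 and 13491 H3K36me3 peaks.

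UGT enzymes move a sugar from a UDP-sugar onto a small molecule. Their acceptors include plant hormones, flavonoids, lignin precursors, glucosinolate precursors, sterols and foreign compounds, and the added sugar commonly makes the acceptor more soluble and less active. Many of the genes have few or no introns. H3K4me3 marks the beginning of transcribed genes, H3K36me3 is laid down over the body of genes as RNA polymerase II elongates, and H3K4me2 occurs on plant genes of widely differing activity. Whole seedlings mix many cell types, so different marks on a gene need not lie in the same cells, and a mark in few cells cannot be told apart from a weak mark in many.

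A gene was counted as carrying a mark where 200 bp or more of its body lay under listed peaks. H3K4me2 and H3K4me3 were widespread on UGT genes, while H3K36me3 was found on fewer members than either. H3K4me2 covered 51 of 58 UGT genes (87.9%), against 82.5% of the 6984 genes of like length and 75.0% of all genes. H3K4me3 covered 42 UGT genes (72.4%), against 69.8% of genes of like length and 62.7% of all genes. H3K36me3 covered 19 UGT genes (32.8%), against 57.0% of genes of like length and 49.9% of all genes. Genes of like length were those from 1683 to 2463 bp, the 10th to 90th percentile of the UGT genes. These shares describe the gene sets and no test of their difference was made, because the lists hold no replicates and genes are not replicates of a condition.

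The combination seen most often on UGT genes was H3K4me2 with H3K4me3 and no H3K36me3, which 23 members carried (39.7%), against 13.2% of genes of like length and 12.9% of all genes. All 3 marks together were found on 18 members (31.0%), against 53.7% of genes of like length and 46.6% of all genes. Every UGT gene but 1 with H3K36me3 thus carried both K4 marks as well, or 18 of 19. The same held for 3753 of 3982 genes of like length with H3K36me3 and 12778 of 13697 of all genes, so it is not particular to UGT genes. H3K4me2 alone was found on 10 members (17.2%), against 15.4% and 15.3%. A single member, UGT76E11, carried H3K4me3 with H3K36me3 (1.72%), against 2.55% of genes of like length and 2.65% of all genes. No mark was found on 6 members (10.3%), against 14.1% of genes of like length and 21.4% of all genes. The remaining combinations were on 0 UGT genes: H3K4me3 alone against 0.372% of genes of like length and 0.521% of all genes, H3K36me3 alone against 0.473% and 0.441%, and H3K4me2 with H3K36me3 against 0.258% and 0.259%.

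**Figure D1:**
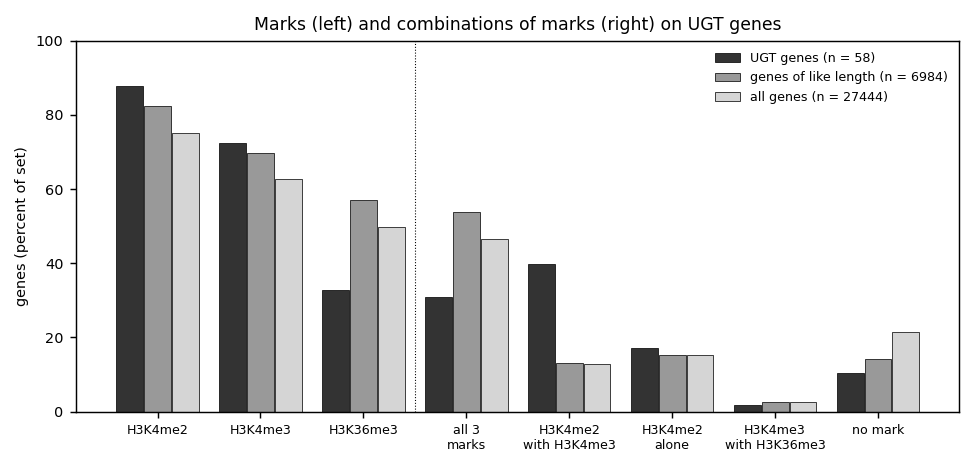
Percent of genes with each mark (left of the dotted line) and with each combination of marks (right), for the 58 UGT genes, 6984 genes of like length and all 27444 nuclear protein-coding genes; each bar is 1 share and has no error, since the lists hold no replicates. H3K4me2 with H3K4me3 reaches 39.7% of UGT genes, against 13.2% of genes of like length, and H3K36me3 reaches 32.8%, against 57.0%.

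These counts depend on how deep into each list peaks were accepted. With only the strongest 50% of each list kept, H3K4me3 covered 6 UGT genes (10.3%), against 37.7% of genes of like length and 33.2% of all genes, and H3K36me3 covered 5 (8.62%), against 28.5% and 25.7%. H3K4me2 with H3K4me3 was then found on 2 UGT genes (3.45%), against 7.25% of genes of like length and 5.74% of all genes, so that the UGT share was then the lowest of the 3. With the strongest 13491 peaks of every list, it was found on 5 (8.62%), against 2.53% and 2.47%. All 3 marks were on 2 UGT genes (3.45%) with the strongest 50%, against 9.08% of all genes. With equal numbers of peaks they were on 14 (24.1%), close to the 26.8% of all genes. Where 50% of the body had to be covered, they were on 11 (19.0%), against 8.54%, so the UGT share was then the higher.

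The 18 UGT genes with all 3 marks were UGT71B1, UGT71C4, UGT71C5, UGT72B3, UGT73B1, UGT74B1, UGT74D1, UGT74F2, UGT75B1, UGT76C1, UGT76C2, UGT78D2, UGT80B1, UGT85A1, UGT85A4, UGT87A2, UGT88A1 and UGT89B1. The 23 with H3K4me2 and H3K4me3 were UGT71B6, UGT71C1, UGT71C2, UGT71C3, UGT71D1, UGT72E1, UGT72E2, UGT73B2, UGT73B3, UGT73B5, UGT73C1, UGT73C6, UGT74F1, UGT76E2, UGT76E12, UGT78D1, UGT84A1, UGT84A2, UGT84A3, UGT84A4, UGT85A2, UGT85A3 and UGT85A5. H3K4me2 alone lay on UGT71B5, UGT72E3, UGT73B4, UGT73C2, UGT74E2, UGT75B2, UGT76B1, UGT76D1, UGT84B2 and UGT85A7. No peak lay on UGT71B8, UGT73C7, UGT73D1, UGT76E1, UGT78D3 or UGT84B1.

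**Figure D2:**
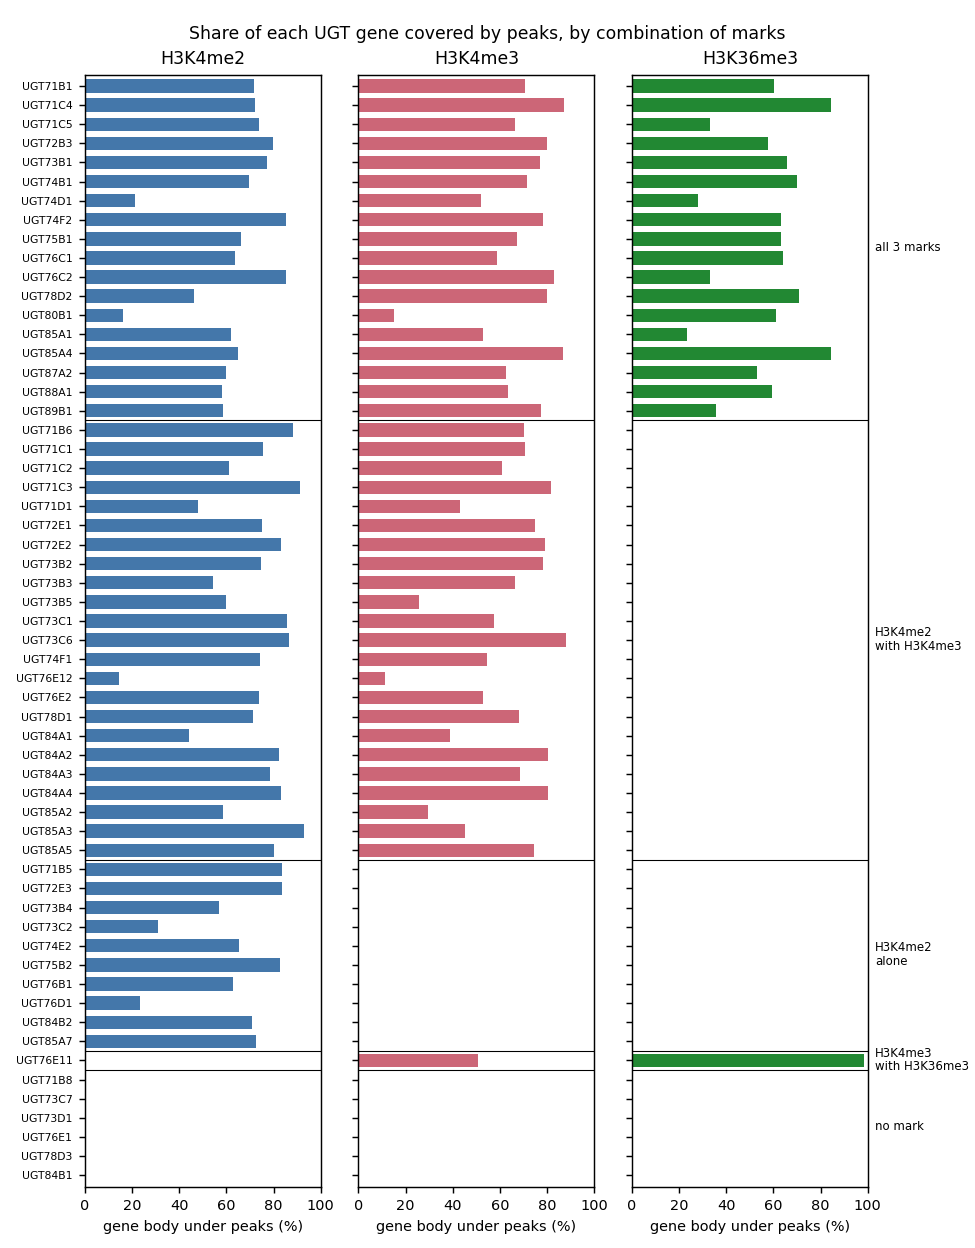
Percent of the body of each of the 58 UGT genes (rows) that lies under H3K4me2, H3K4me3 and H3K36me3 peaks (columns), with the genes grouped by their combination of marks. Bars are single values from the pooled lists. UGT76E12 has the smallest cover that still counts, with 14.5% under H3K4me2 and 11.3% under H3K4me3.

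No UGT gene came close to the limit of 200 bp from below, since every member without a mark had 0 bp of it. The smallest covers that counted were those of UGT76E12, with 277 bp of H3K4me2 and 215 bp of H3K4me3. The smallest H3K36me3 cover was 626 bp, in UGT71C5. Limits of 1 or 100 bp therefore leave every member's marks as they are, and a limit of 400 bp takes both marks from UGT76E12 and no mark from any other member.

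A gene without a listed peak is not a gene without the mark. Called peaks were numbered along the genome, and gaps in the numbers show that some were left out: 62.8% of 36905 H3K4me2 numbers, 76.3% of 23175 H3K4me3 numbers and 62.8% of 21492 H3K36me3 numbers are listed. Of the 39 UGT genes without H3K36me3, 31 lay between 2 listed peaks whose numbers leave room for at least 1 called peak that was left out, and 22 of these were among the 23 genes with H3K4me2 and H3K4me3. The same held for 13 of the 16 UGT genes without H3K4me3 and 6 of the 7 without H3K4me2. Such a peak may lie on the gene or beside it. Neighbouring members can share a gap: UGT85A7, UGT85A2, UGT85A5 and UGT85A3 all lay in the same H3K36me3 gap of 18666 bp. The same count was not made for all genes, so these counts cannot be called particular to UGT genes.

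The authors' fold of a peak is its enrichment over total H3, and it is compared here within a list only. The median H3K4me3 fold was lower on UGT genes than in the list as a whole, while the median H3K4me2 fold was somewhat higher. Among genes with H3K4me2 and H3K4me3 only, the H3K4me2 median was lower on UGT genes, at 4.21 against 5.13 on genes of like length. A gene's fold is that of its strongest peak, while a list's median counts every peak. The median H3K4me3 fold was 6.85 on the 42 UGT genes, from 2.93 to 11.1, against 9.03 on genes of like length, and 36 of the 42 lay below the median of the H3K4me3 list, which was 8.84. For H3K36me3 the median fold was 4.30 on the 19 UGT genes, from 3.16 to 6.43, against 5.68 on genes of like length, and 15 of the 19 lay below the list's median of 5.68. For H3K4me2 the median fold was 3.89 on the 51 UGT genes, from 1.82 to 6.86, against 3.50 on genes of like length, and 18 of the 51 lay below the list's median of 3.37.

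The median H3K4me3 fold was higher on UGT genes with all 3 marks than on those with H3K4me2 and H3K4me3 only. The 18 genes with all 3 marks had a median H3K4me3 fold of 8.39, from 6.84 to 11.1, and the 23 genes with H3K4me2 and H3K4me3 had a median of 4.50, from 2.93 to 8.83. UGT76E11, the remaining UGT gene with H3K36me3, had a lower H3K4me3 fold than each of the 18. Genes of like length had 9.47 and 4.76 in the same 2 combinations. The H3K4me2 fold was highest in the middle group, with a median of 3.63 on UGT genes with all 3 marks, 4.21 on those with H3K4me2 and H3K4me3, and 3.23 on those with H3K4me2 alone, against 3.44, 5.13 and 3.00 on genes of like length.

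**Figure D3:**
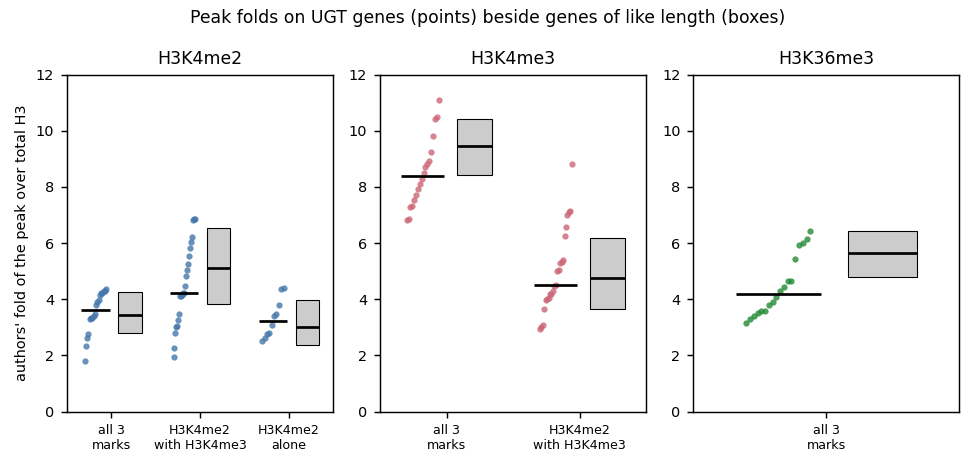
Authors' fold of the strongest peak over total H3 for each mark (panels) and combination of marks (x axis); points are single UGT genes with their median as a line, and the grey boxes beside them span the middle 50% of genes of like length with their median. For H3K4me3 the UGT genes with all 3 marks lie between 6.84 and 11.1 and those with H3K4me2 and H3K4me3 only between 2.93 and 8.83, so the ranges overlap. UGT76E11 is not drawn.

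Whether a UGT gene carried H3K36me3 went with its H3K4me3 fold. Folds of 7.12, 8.99 and 10.2 divide all genes with H3K4me3 into 4 groups of nearly equal size. In the lowest group H3K36me3 was on 3 of 23 UGT genes (13.0%), against 29.2% of genes of like length and 27.1% of all genes. In the next it was on 11 of 14 UGT genes (78.6%), against 92.5% and 90.5%. Above a fold of 8.99 it was on 2 of 2 and 3 of 3 UGT genes, against 98.5% and 98.7% of genes of like length. UGT genes with H3K4me3 fell mostly in the lowest group, and in each of the lower 2 groups the UGT share was below that of genes of like length. Both lists were set against the same pooled H3, so the folds share a control.

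Among UGT genes with all 3 marks, the strongest H3K4me3 peaks were on UGT71C4, UGT85A4, UGT76C1 and UGT89B1. On UGT71C4 (AT1G07250) the H3K4me3 peak at chr1:2225824-2227437 (TAIR10) had a fold of 11.1 and the H3K36me3 peak at chr1:2225838-2227397 a fold of 6.43, the highest of both marks among UGT genes. UGT85A4 (AT1G78270) had H3K4me3 at chr1:29450719-29452326 with a fold of 10.5 and H3K36me3 at chr1:29450732-29452297 with a fold of 6.14. UGT76C1 (AT5G05870), an enzyme that adds glucose to ring nitrogens of cytokinins, had H3K4me3 at chr5:1767540-1768713 with a fold of 10.4 and H3K36me3 at chr5:1767653-1768832 with a fold of 5.42. In UGT71C4 and UGT85A4 both marks began and ended within 50 bp of each other. UGT89B1 (AT1G73880) had an H3K4me3 fold of 9.81 at chr1:27785124-27786569, with H3K4me2 and H3K36me3 folds of 4.21 and 4.65.

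In the group with H3K4me2 and H3K4me3, H3K4me2 reached its highest folds among UGT genes. UGT71C3 (AT1G07260), which acts on methyl salicylate, had H3K4me2 at chr1:2227752-2229371 with a fold of 6.86 and H3K4me3 at chr1:2227747-2229189 with a fold of 7.14. UGT71B6 (AT3G21780), which glucosylates abscisic acid, had H3K4me2 at chr3:7675058-7676480 with a fold of 6.85, beside an H3K4me3 fold of 4.19. By p-value these H3K4me2 peaks of UGT71B6 and UGT71C3 stood in the top 4.23% and 4.62% of that list. UGT72E1 (AT3G50740), a glucosyltransferase of lignin precursors, had folds of 6.81 for H3K4me2 at chr3:18855341-18856837 and 7.12 for H3K4me3 at chr3:18855350-18856843. The highest H3K4me3 fold without H3K36me3 was 8.83, on UGT71C2 (AT2G29740) at chr2:12706709-12707769.

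The 10 UGT genes with H3K4me2 alone had moderate folds, from 2.50 to 4.40. The highest were those of UGT71B5 (AT4G15280), with 4.40 at chr4:8719148-8720578, UGT73B4, with 4.35, and UGT85A7, with 3.78. UGT76B1 (AT3G11340), which conjugates isoleucic acid, salicylic acid and N-hydroxypipecolic acid, had 3.49 at chr3:3556683-3557816. The peak counted for UGT73B4 lies at chr2:6761414-6762693, and it counts for UGT73B5 as well: the table's UGT73B5 model, the longest of the UGT genes at 5072 bp, contains the whole UGT73B4 model, so the 2 genes cannot be told apart there.

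Peaks ran farther along UGT genes than along genes of like length for H3K4me2 and H3K4me3, but not for H3K36me3. On UGT genes that carried it, H3K4me3 covered a median of 68.2% of the body (1395 bp), against 41.2% (846 bp) on genes of like length. H3K4me2 covered 71.5% of the body, against 51.2%. H3K36me3 covered 61.3% (1182 bp), against 69.6% (1434 bp). At least 50% of the body lay under H3K4me3 in 35 of 42 UGT genes with the mark (83.3%), against 32.0% of genes of like length, and under H3K36me3 in 14 of 19 (73.7%), against 90.8%.

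The marks of a UGT gene mostly lay on the same stretch of it. In the 41 UGT genes with both H3K4me2 and H3K4me3, a median of 89.3% of the sequence under either mark lay under both, against 65.6% in 4674 genes of like length. The closest overlap was in UGT72B3, at 99.5%, and in UGT72E1, at 99.0%, and the least was in UGT85A2, at 30.6%, and UGT74D1, at 40.7%. In the 19 UGT genes with H3K4me3 and H3K36me3 the shared part was 84.3%, against 57.4% in 3931 genes of like length. H3K36me3 lay wholly under H3K4me3 in 15 of the 19 (78.9%), against 16.0% of genes of like length. The 4 exceptions were UGT74B1, with 99.5% of its H3K36me3 under H3K4me3, UGT76C1, with 89.9%, UGT76E11, with 50.5%, and UGT80B1, with 21.9%.

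UGT80B1 (AT1G43620), a sterol glucosyltransferase, is long, with 4876 bp, and showed the layout in which H3K36me3 extends beyond H3K4me3. Its H3K36me3 peak at chr1:16427215-16430203 was 2989 bp wide, with a fold of 3.90. Its H3K4me3 peak at chr1:16429549-16430274 covered 14.9% of the gene, with a fold of 7.93. By contrast UGT74B1 (AT1G24100), which glucosylates thiohydroximates in glucosinolate synthesis, is 1754 bp long and had nearly the same limits for all 3 marks. They were chr1:8525818-8527040 for H3K4me2, chr1:8525818-8527073 for H3K4me3 and chr1:8525812-8527040 for H3K36me3, with folds of 4.37, 9.24 and 5.94.

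The gene table gives no strand, so extent was read from the gene end nearer the H3K4me3 summit, in genes where that end could be told. UGT genes had less H3K4me3 at that end and more of it far into the gene. In the first 100 bp, H3K4me3 covered on average 25.5% of the sequence of 15 UGT genes with all 3 marks, against 48.8% in 3567 genes of like length. At 1000 to 1100 bp it covered 86.9%, against 31.9%, and at 1500 to 1600 bp 60.7%, against 10.5%. In 20 UGT genes with H3K4me2 and H3K4me3 it covered 68.7% at 1000 to 1100 bp, against 36.3% in 801 genes of like length. H3K36me3 at 1000 to 1100 bp covered 83.0% of the UGT genes with all 3 marks, against 94.4%. The H3K4me3 summit lay a median of 429 bp from the nearer end of UGT genes, against 298 bp in genes of like length. The H3K4me3 summit of UGT genes thus lay farther from the nearer gene end. That end was chosen by the summit itself and may be either end of the gene, so distance from the start of transcription is unknown.

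**Figure D4:**
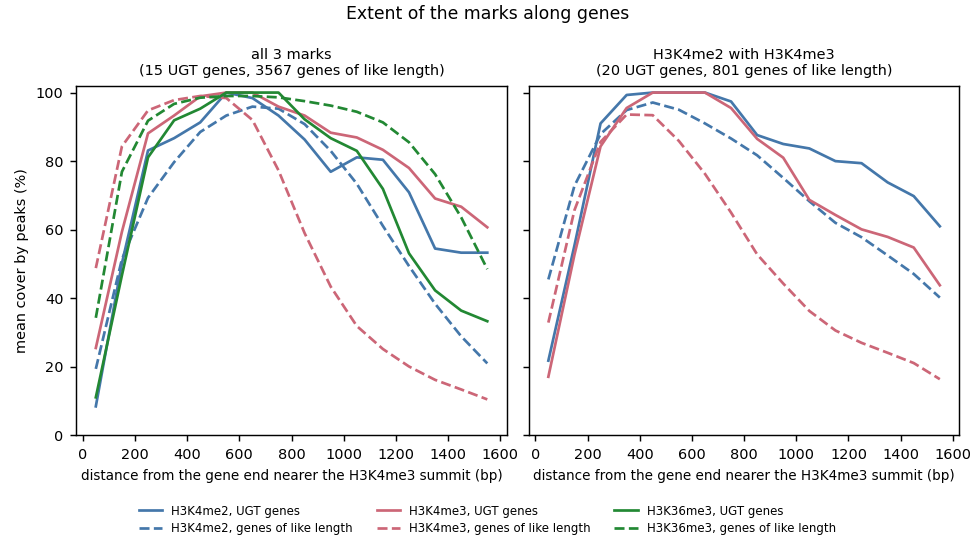
Mean percent of sequence under peaks in bins of 100 bp (y axis) by distance from the gene end nearer the H3K4me3 summit (x axis, bp), for genes with all 3 marks (left) and with H3K4me2 and H3K4me3 (right); solid lines are UGT genes, dashed lines genes of like length, and colours are the marks. Solid H3K4me3 lines stay above the dashed ones beyond about 700 bp, with 86.9% against 31.9% at 1000 to 1100 bp on the left.

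The tandem clusters were runs of UGT genes with at most 1 other protein-coding gene between neighbours: 10 of 2 genes, 4 of 3 and 1 of 5. In 4 of the 15 clusters all UGT genes had the same combination of marks, and in 11 they differed. Of the 22 pairs of neighbouring UGT genes, 4 with another gene between them, 10 had the same combination (45.5%). Of the 18 pairs with no gene between, 9 did (50.0%), against 38.2% of all 27439 pairs of adjacent genes. These 18 were alike for H3K4me2 in 16 pairs (88.9%), against 69.1%, for H3K4me3 in 14 (77.8%), against 61.5%, and for H3K36me3 in 14 (77.8%), against 57.0%. Such shares also move with how common a mark is in the set, and no test of their difference was made. Neighbours and duplicates share sequence, and no source used here says how reads that match more than 1 copy were placed.

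Clustered and single UGT genes had like shares of H3K4me3 and unlike shares of H3K36me3. H3K36me3 was on 9 of 37 clustered members (24.3%) and on 10 of 21 single ones (47.6%). H3K4me2 with H3K4me3 was on 18 clustered members (48.6%) and on 5 single ones (23.8%). H3K4me3 itself was on 27 clustered members (73.0%), with a median fold of 5.34, and on 15 single ones (71.4%), with a median fold of 7.93. All 6 members without a mark were clustered. Clusters were formed from genes with a UGT symbol only, so a UGT gene under another name did not count as a neighbour. UGT73C6, for example, counted as single, while DOGT1, named UGT73C5 by synonym, was not a member. Cluster sizes and the split into clustered and single genes therefore depend on naming. No test of these differences was made, and members of a cluster are not independent.

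The 5 genes of the UGT85A cluster on chromosome 1 span 16.7 kb and stepped through 3 combinations. UGT85A7 had H3K4me2 alone, with a fold of 3.78. UGT85A2 had H3K4me2 and H3K4me3 folds of 3.02 and 7.00, UGT85A5 had 5.03 and 4.99, and UGT85A3 had 4.11 and 3.97. UGT85A1, at the other end, which adds glucose to the side chain of zeatin, carried all 3 marks, with an H3K4me2 fold of 3.89, an H3K4me3 fold of 6.85 and an H3K36me3 fold of 3.16. That H3K36me3 fold was the lowest among the UGT genes with that mark. By p-value its peak stood at 99.1% of the list, counted from the strongest, and the UGT85A3 H3K4me3 peak at 92.1% of its own. The step to all 3 marks thus rests on a peak near the end of the list. In the H3K36me3 gap that holds the other genes of the cluster, 6 called peaks were left out. UGT85A2 and UGT85A5 are separated by 153 bp, and UGT85A5 and UGT85A3 by 19 bp, yet each had peaks of its own.

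Changes between neighbours were also seen in smaller clusters. UGT71C4, with all 3 marks, and UGT71C3, without H3K36me3, overlap by 15 bp. In the UGT78D pair, UGT78D2, the flavonoid 3-O-glucosyltransferase, had an H3K4me3 fold of 8.92 at chr5:5608066-5609508 and an H3K36me3 fold of 4.44 at chr5:5608144-5609417, while UGT78D3, the flavonol arabinosyltransferase, had no peak. Between them lies AT5G17040, with H3K4me2 alone at a fold of 2.91. UGT71B6 and the unmarked UGT71B8 flank AT3G21790, which carried all 3 marks with folds of 3.44, 6.64 and 4.02. AT5G17040 and AT3G21790 have no UGT symbol and were not members, but either may belong to the family under another name. The 4 uniform clusters were of 3 kinds. UGT84A1, UGT84A3 and UGT84A4 on chromosome 4, and UGT71D1, UGT71C2 and UGT71C1 on chromosome 2, all had H3K4me2 with H3K4me3. UGT76C2 and UGT76C1 both had all 3 marks, and UGT73D1 and UGT73C7 both had none.

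The UGT76E genes, whose enzymes are known to glucosylate hydroxylated jasmonate, differed among themselves. UGT76E1 had no peak, while its neighbour UGT76E2 had H3K4me2 with a fold of 4.46 and H3K4me3 with a fold of 4.19. UGT76E11 was the only member with H3K4me3 and H3K36me3 but no H3K4me2. Its H3K36me3 peak was 2712 bp wide, with 1781 bp in UGT76E11, and also reached AT3G46666 next to it, and the summit lay outside UGT76E11. In UGT76E12 the H3K4me3 peak counted had 215 of its 977 bp in the gene and its summit outside, so both members take part of their combination from peaks shared with their surroundings.

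**Figure D5:**
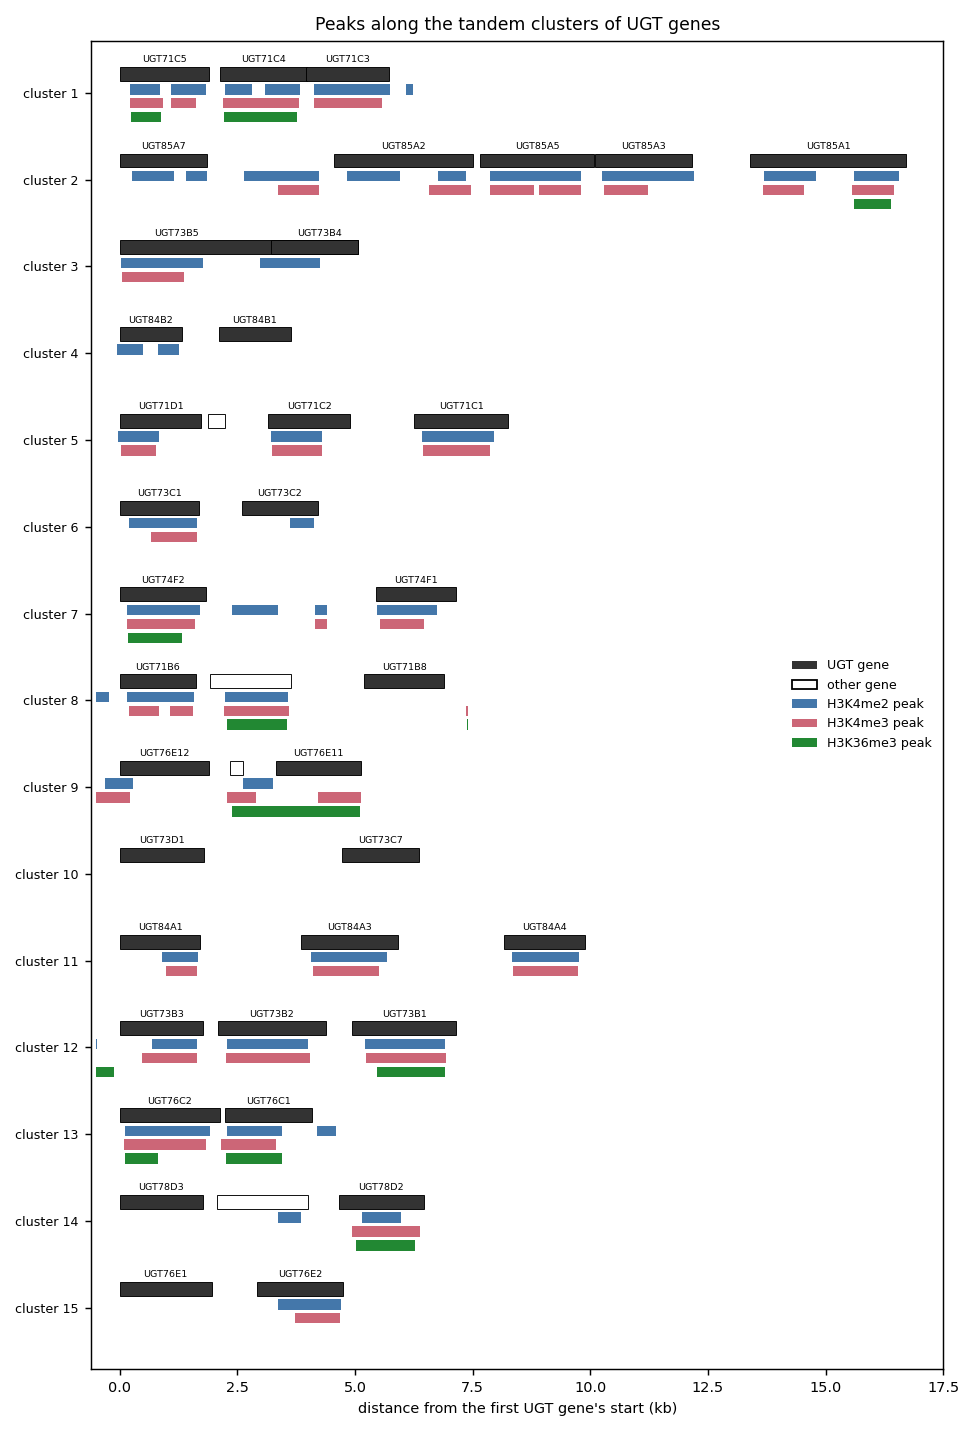
Map of the 15 tandem clusters of UGT genes, drawn to scale in kb from the start of the first UGT gene (x axis). Filled boxes are UGT genes, open boxes genes without a UGT symbol, and coloured bars the H3K4me2, H3K4me3 and H3K36me3 peaks. In 11 clusters the combination of marks differs between members, and H3K36me3 bars lie on 9 of the 37 clustered UGT genes.

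Grouped by the molecules they act on, UGT genes differed in H3K36me3. It was on 0 of the 7 members that act on monolignols or hydroxycinnamates and on 3 of the 4 cytokinin members, against 32.8% of UGT genes, 57.0% of genes of like length and 49.9% of all genes. With GT72B1, which is UGT72B1 by synonym and not a member, the first count becomes 1 of 8 genes. UGT84A1, UGT84A3 and UGT84A4 among the 7 form 1 tandem cluster and are not independent, nor are the neighbours UGT76C1 and UGT76C2 among the 4. The lists come from textbook knowledge of the enzymes, hold 1 to 7 members each, and got no test. UGT71B7, UGT74C1, UGT75C1, UGT75D1, UGT76F1, UGT89C1 and UGT91A1 belong to these lists but matched no symbol or synonym in the gene table. Their genes may stand there under other names, and are then not counted in these lists.

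Cytokinin enzymes had H3K36me3 in the largest share among the lists of 3 or more members, but on few genes. UGT76C1 and UGT76C2 are tandem neighbours and not independent. By p-value the H3K36me3 peaks of UGT76C1, UGT76C2 and UGT85A1 stood at 47.0%, 88.2% and 99.1% of that list, counted from the strongest. UGT76C1 and UGT76C2, which form cytokinin N-glucosides, reached 10.4 and 7.71 for H3K4me3, with 5.42 and 3.51 for H3K36me3. UGT85A1 had all 3 marks as well, and UGT73C1 had H3K4me2 and H3K4me3 at low folds of 1.95 and 3.01. All 4 carried H3K4me3, against 69.8% of genes of like length and 62.7% of all genes.

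The group of lignin precursors and sinapate had H3K4me2 on 7 of 7 members, against 82.5% of genes of like length and 75.0% of all genes, and H3K4me3 on 6 of 7, against 69.8% and 62.7%. With 7 genes, these counts lie near the share among genes of like length. UGT72E1, UGT72E2 and UGT72E3 glucosylate the monolignols, and their H3K4me2 folds were 6.81, 6.05 and 3.07. H3K4me3 was on UGT72E1 at 7.12 and on UGT72E2 at 4.06, and not on UGT72E3. The 4 UGT84A genes form glucose esters of hydroxycinnamates, with UGT84A2 the sinapate enzyme. UGT84A2 had the highest H3K4me3 fold of them, at 6.24, against 3.08 for UGT84A1, 4.28 for UGT84A3 and 2.93 for UGT84A4. The UGT84A4 peak, at chr4:8857163-8858541, had the lowest H3K4me3 fold among UGT genes but covered 80.3% of the gene. GT72B1, which the table names UGT72B1 only as a synonym, was outside the 58 and had all 3 marks, with folds of 2.73, 9.36 and 4.51.

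Salicylate enzymes covered 3 combinations. UGT74F2, which forms salicylate glucose ester, had all 3 marks, with an H3K4me2 fold of 3.46, an H3K4me3 fold of 6.84 and an H3K36me3 fold of 4.07. Its tandem neighbour UGT74F1, which forms salicylate glucoside, had H3K4me2 at 4.82 and H3K4me3 at 4.50 and no H3K36me3. UGT71C3 had the same 2 marks, and UGT76B1 and UGT76D1, an enzyme of dihydroxybenzoates, had H3K4me2 alone at 3.49 and 3.40.

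The auxin and abscisic acid enzymes were each split. UGT74D1, an enzyme of auxins and their oxidised forms, carried all 3 marks with an H3K4me2 fold of 1.82, an H3K4me3 fold of 7.29 and an H3K36me3 fold of 3.58. UGT74E2, which acts on indole-3-butyric acid, had H3K4me2 alone at 2.76, and UGT84B1, which acts on indole-3-acetic acid, had no peak. For abscisic acid, UGT71C5 carried all 3 marks with folds of 4.24, 8.81 and 3.80, UGT71B6 lacked H3K36me3 and UGT71B8 had no peak. UGT73C6, an enzyme of flavonols and brassinosteroids, had H3K4me2 at 2.27 and H3K4me3 at 4.49, and H3K4me3 covered 88.0% of the gene, the widest share among UGT genes. DOGT1, a brassinosteroid enzyme named UGT73C5 by synonym, was much like it, with 2.28 and 5.18 and no H3K36me3.

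Among the flavonol enzymes UGT78D1, the rhamnosyltransferase, had H3K4me2 at 5.25 and H3K4me3 at 5.28, where UGT78D2 had 2.34 and 8.92 with H3K36me3. Outside the 58, UF3GT (UGT79B1 by synonym), an anthocyanin enzyme, had H3K4me2 alone at 2.32, and AT5G54010 (UGT79B6 by synonym) had no mark. Of 4 members named for responses to pathogens, oxidative stress or foreign compounds, 0 carried H3K36me3, against 32.8% of UGT genes and 49.9% of all genes: UGT73B3 had H3K4me2 at 4.12 and H3K4me3 at 4.02, UGT73B5 had 6.21 and 5.05, and UGT73B4 and UGT74E2 had H3K4me2 alone. UGT87A2, which acts in flowering time, carried all 3 marks, with folds of 3.96, 8.70 and 4.66. UGT74B1 and UGT80B1 were the only members in the lists for glucosinolates and sterols, and both had all 3 marks. The other sterol glucosyltransferase, SGT (UGT80A2 by synonym), had all 3 at higher folds of 6.17, 11.9 and 7.15.

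The genes that make UDP-sugars, the donors that UGT enzymes use, had higher H3K4me3 folds and a larger share with H3K36me3 than UGT genes. Among 42 of 58 UGT genes with H3K4me3 the median fold was 6.85, and among 22 of 26 matched supply genes (84.6%) it was 9.12. Of all genes, 62.7% carried H3K4me3, with a median fold of 8.99, close to that of the supply genes. H3K36me3 was on 19 of 58 UGT genes (32.8%) and on 19 of the 26 supply genes (73.1%), against 49.9% of all genes. All 3 marks were on 17 of the supply genes, against 46.6% of all genes. Among the 17 were UGP1 and UGP2, which make UDP-glucose. SUS4, SUS5 and SUS6, which encode sucrose synthases, had no mark. Supply genes are mostly longer than UGT genes, so their shares are set beside each other without adjustment.

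Cytochrome P450 and glutathione transferase genes, other large families of enzymes of specialised metabolism and detoxification, had smaller shares with H3K4me3. H3K4me3 was on 72.4% of UGT genes, against 42.9% of 224 cytochrome P450 genes and 51.1% of 47 glutathione transferase genes. H3K36me3 was on 32.8% of UGT genes, against 17.4% and 31.9%. H3K4me2 with H3K4me3 was on 39.7% of UGT genes, against 25.9% of cytochrome P450 genes and 17.0% of glutathione transferase genes. No test of these differences was made.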

How the data were processed

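The submitters' processing notes name the TAIR10 genome and, with no role or setting, MACS2 (no version), SAMtools 1.3, Picard 2.2.4, Bowtie2 2.2.6, Trimmomatic 0.33 and R 3.3.2; the choice of listed peaks is not described in those notes. Peak names in the deposited lists say that each was called on pooled libraries of a mark against pooled total H3. The deposited fold is the caller's ratio over H3, the deposited −log10 p is the caller's, the deposited score follows it, and the deposited summit position (distance from the peak start) gave summits. Peaks were laid on the RefSeq gene table for TAIR10.1, whose coordinates are not printed; peak sequence fell most inside genes at an offset of 0, among steps of 100 bp to 1000 bp either way. Cover of 200 bp (50% in genes under 400 bp) counted as a mark. A gene's fold is that of its strongest listed peak by −log10 p with at least 200 bp in it.

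Members, gene lists and rules for named genes were chosen with earlier results of these data known. Named with values were the leading members of each combination by −log10 p, all members of the cluster of 5, the members of the functional lists and those nearest the 200 bp limit; others given in the text, with the pairs of neighbours, were chosen after their values were seen. Python 3.11.15, pandas 2.3.3, NumPy 2.4.6 and matplotlib 3.10.9 were used. No sequence is printed.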

Additional observations from a re-analysis of the deposited data

How the results depend on the processing

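Counts of UGT genes per mark and combination, and of like neighbours, were recomputed with cover limits of 1, 100, 400 bp or 50% of the body, with summits in the gene, with the strongest 50% of each list, with equal peak numbers, with the 64 genes named UGT by symbol or synonym, and without members whose gene models overlap. Of 75 recomputed counts, 62 stayed within 1.5 times, but some of these could not move. Limits of 1 or 100 bp change no member's marks, and the equal number of peaks is the whole H3K36me3 list. The 1.5 times also refers to the UGT count only and not to its contrast with all genes. With the strongest 50% of each list, UGT genes numbered 6 (10.3%) for H3K4me3, 5 (8.62%) for H3K36me3, 2 (3.45%) for all 3 marks, 2 (3.45%) for H3K4me2 with H3K4me3, 31 (53.4%) for H3K4me2 alone and 20 (34.5%) for no mark, against 33.2%, 25.7%, 9.08%, 5.74%, 25.1% and 39.1% of all genes. With equal numbers of peaks they numbered 23 (39.7%) for H3K4me3, 5 (8.62%) for H3K4me2 with H3K4me3, 21 (36.2%) for H3K4me2 alone and 13 (22.4%) for no mark, against 49.7%, 2.47%, 15.9% and 31.2% of all genes. With 50% of the body, 11 (19.0%) had all 3 marks and 11 (19.0%) had none, against 8.54% and 38.1% of all genes, and 6 of 22 neighbouring pairs were alike. These settings accept fewer peaks or genes by construction. Counts of H3K4me2 with H3K4me3 under these alternatives, and counts without the 2 members whose gene models overlap by 200 bp or more, or the 4 that overlap by any length, were added after seeing the data. Clustered members numbered 30 with no other gene allowed between neighbours and 41 with up to 5. The comparison of members with near-identical proteins was not run. No paired analysis was possible because each list pools libraries and carries no replicate numbers. Depth is unknown, so weak marks, and peaks left out of the lists, limit every absence reported.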
